A study of Mus musculus with 15 samples.

Results

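Genes of matrix turnover were followed in cultured adipocytes kept at a cool temperature. The set held the matrix metalloproteinases (Mmp genes), the ADAMTS proteases and their catalytically inactive ADAMTS-like relatives (Adamtsl), the 4 tissue inhibitors of metalloproteinases (Timp), the lysyl oxidases (Lox and Loxl1 to Loxl4), the transglutaminase Tgm2, and the procollagen C-proteinase Bmp1 with its enhancers Pcolce and Pcolce2. Members were taken by gene symbol alone, and 59 of the 18804 genes in the count table met that rule. Of these, 47 had enough reads to be tested and 41 had a mean level of at least 1 CPM (counts scaled to a common library size of 1e+06).

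White adipocytes were differentiated from mesenchymal stem cells of C57BL/6J mice, which the study took from the ear. Every group received methylisobutylxanthine, dexamethasone, insulin and a thiazolidinedione, named as troglitazone in the sample descriptions, while the study's methods name troglitazone in one protocol and rosiglitazone in another. The day 0 group stayed at 37°C throughout. The day 1 group spent its last day at 31°C and the day 12 group spent 12 days there. Harvest was at differentiation day 16 in all groups. Cooling thus began at differentiation day 4 for the day 12 group and only at day 15 for the day 1 group. Between these groups the length of cooling and the stage of the cells at its start differ together. Their separate parts in the results were not tested. Each group had 5 libraries, and no source used here says whether they came from separate mice or dishes, so errors and p-values refer to the spread between libraries. The sex and age of the donor mice are not given in the sources used here.

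Connective tissue around fat cells is built, crosslinked and degraded by these enzymes. MMPs are zinc proteases that cleave collagens, proteoglycans and other matrix proteins, most of them secreted and some of them anchored in the membrane, and TIMP proteins bind to and block their active sites. ADAMTS enzymes include proteases of aggrecan and versican and the N-proteinases that trim procollagens, while BMP1 removes the other end of the procollagen chain with the help of PCOLCE. Lysyl oxidases oxidize lysines of collagen and elastin so that the fibres crosslink, and TGM2 crosslinks proteins through glutamine and lysine.

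The total count per library was 64648178 to 133270973. A count of 0 allowed a level of up to 0.0238 to 0.0428 CPM (3 counts, counting error only). The cold-inducible genes Cirbp and Rbm3 were both called higher at both days. The summed level of 12 adipocyte markers was 5983 to 6663 CPM at day 0, 6908 to 7652 at day 1 and 6053 to 6709 at day 12, and all 12 were detected. At day 12 against day 0, 6 of them were called lower and 2 higher, with a median log2 fold change of -0.33. Within that list Adipoq stood at 1095, 1126 and 464 CPM at days 0, 1 and 12. Markers of fibroblasts or progenitors were abundant too, at 19762 to 20208, 16631 to 17276 and 15460 to 15803 CPM over 13 genes. The chondrocyte list (8 genes) was at 3814.5 to 4553 CPM at day 0, 4039 to 4189 at day 1 and 1331 to 1440 at day 12, most of it Comp, and the osteoblast list was at 11538.5 to 17199 CPM in all libraries, most of it Spp1. Matn1 of the chondrocyte list had under 10 counts in every library, and Col2a1 stood at 149, 155 and 182 CPM. The smooth muscle or pericyte list (9 genes) summed to 516 to 579 CPM at day 0, 607 to 769 at day 1 and 500.4 to 619.9 at day 12, with Acta2 as its largest part. Of its 9 genes 3 were called lower at day 1 and 5 at day 12, none higher, with a median log2 fold change of -1.36 at day 12. Macrophage or other leukocyte markers (8 genes) summed to 26.4 to 33.8 CPM at day 0, 42.3 to 48.6 at day 1 and 30.1 to 34.4 at day 12 with Ptprc near 0, and 2 of the 5 tested, Cd14 (0.71 ± 0.066 on the log2 scale) and Csf1r (2.03 ± 0.31), were called higher at day 1. Endothelial markers (9 genes) summed to 17.5 to 19.2, 16.7 to 18.3 and 12.3 to 14.0 CPM with Cdh5 near 0, and mesothelial or epithelial markers (12 genes) to 10.1 to 15.5 CPM at days 0 and 1 and 30.0045 to 44.3 CPM at day 12 with Epcam and Wt1 near 0. The part of these cell types in the results on matrix genes was not tested, and in bulk libraries fewer cells of a type and less RNA per cell cannot be told apart.

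The strongest gene of the set was Mmp3, stromelysin 1, a broad protease that cleaves proteoglycans, laminin and fibronectin and activates other MMPs. Mmp3 was the gene with the 16th highest mean CPM of all 18804 genes at day 0. Per kilobase of exon it stood at 2925 ± 199 CPM at day 0 (SD, n = 5). Timp1 followed at 1543 ± 112 CPM per kb, then Lox at 447 ± 19.2, Timp2 at 439 ± 8.25, Mmp2 at 307 ± 4.29, Timp3 at 225 ± 14.2 and Pcolce at 210.3 ± 5.00. In that order Lox and Timp2 overlapped in their day 0 values, as did Timp3 and Pcolce, and the other neighbours among these 7 genes did not overlap. The next, Mmp14, was at 57.7 ± 1.67 CPM per kb and overlapped Loxl2 at 55.8 ± 2.85. Among the members at 1 CPM or more, the lowest level per length was that of Adamts16 at 0.0926 ± 0.0325. Mmp3 thus exceeded every gelatinase and collagenase, and Timp4, at 1.61 ± 0.174, was far below the other inhibitors. Exon lengths were taken as the union of the annotated transcripts, which can be longer than the transcript these cells make.

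**Figure D1:**
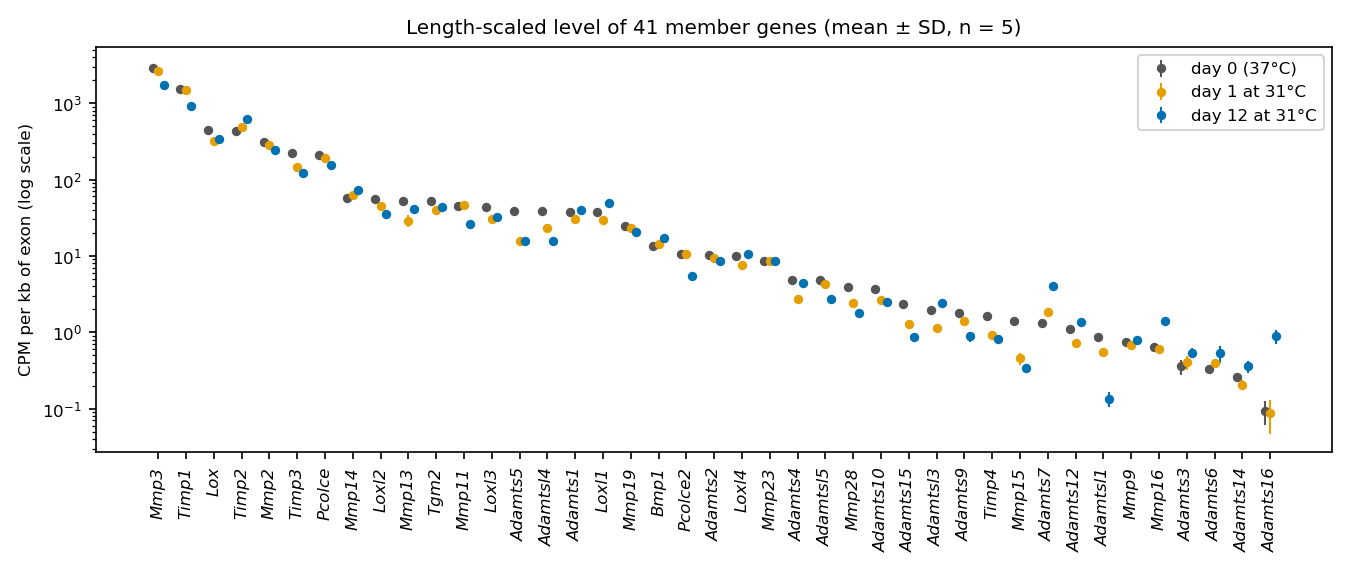
CPM per kilobase of exon (y axis, log scale) of the 41 members at 1 CPM or more (x axis, ordered by the day 0 level), as the mean ± SD of 5 libraries per group in grey (day 0), orange (day 1) and blue (day 12). Mmp3 stood highest in each group, at 2925 CPM per kb at day 0 and 1724 at day 12, and Adamts16 was lowest at day 0.

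At day 1 against day 0, 13 of the 47 tested members were lower (27.7%) and 0 were higher, by the quasi-likelihood test of edgeR which called a gene where the adjusted p was under 0.05 and the fold change over 1.5. Of all 14293 tested genes, 13.4% were called lower and 7.71% higher. The count of 0 stands beside 4 members that were higher at an unadjusted p under 0.05, all of them under the fold limit, and DESeq2 also called 0. At day 12 against day 0, 18 members were lower (38.3%) and 5 were higher (10.6%), against 16.2% and 13.0% of all genes. At day 12 against day 1, 9 were higher (19.1%) and 11 lower (23.4%), against 10.6% and 8.53% of all genes. The median log2 fold change of the members was -0.31 at day 1 and -0.36 at day 12 against day 0, while that of all genes tested was -0.0088 and 0.012. Values of the 5 libraries did not overlap between day 0 and day 1 for 23 members that were lower and 3 that were higher, where 28.8% and 28.6% of all genes had no overlap. For day 12 against day 0 these counts were 24 lower and 9 higher, against 31.7% and 33.0%. Beside these counts, the fibroblast or progenitor markers summed to a mean of 19969, 16932 and 15635 CPM in the 3 groups in order of time, and their part in the counts was not tested.

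The scaling moved this balance. Lower members made up 78.3% of those called at day 12 against day 0 and 55% at day 12 against day 1 with TMM scaling, against 63.6% and 27.8% with total counts only, where the median of all genes shifted to 0.21 and 0.18 on the log2 scale. With Hprt, Tbp and Ppia as reference genes, where the median of all genes stood at -0.16 at day 1 and -0.25 at day 12 against day 0 and at -0.11 at day 12 against day 1, lower members were 88.9% and 60%. The shares over all called genes moved too. In the same 2 comparisons, lower genes were 55.6% and 44.7% of them with TMM scaling. These shares were 35.9% and 27.3% with total counts only, and 77.9% and 58.1% with the reference genes. At day 1, 100% of the called members were lower under each scaling. Of all called genes, 63.5% were lower at day 1 with TMM scaling, 60.8% with total counts only and 80.5% with the reference genes.

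By pattern of calls, 6 members were called lower at both days against day 0 with no call between the days (Mmp15, Mmp28, Timp3, Timp4, Adamts5 and Adamtsl4). A further 2, Adamts15 and Adamtsl1, were lower at both days and lower again at day 12 than at day 1, so that 8 of 47 members were lower at both, against 8.42% of all genes. Another 8 were lower at day 12 than at either earlier group and not called at day 1 (Mmp3, Mmp11, Mmp12, Timp1, Adamts9, Adamts17, Adamtsl5 and Pcolce2). With total counts only, 4 of these 8 lost the call at day 12 against day 1, namely Mmp3 (-0.46), Timp1 (-0.52), Adamts9 (-0.48) and Adamtsl5 (-0.49). A group of 4 were lower at day 1, not called at day 12 against day 0 and called higher at day 12 than at day 1 (Mmp27, Adamts4, Adamts12 and Adamtsl3). The 3 genes Mmp16, Adamts7 and Adamts16 were higher at day 12 than at both earlier groups. No call was made in any comparison for 16 members. Apart from the genes lower at both days, the share of all genes with each of these patterns was not computed. The counts of the other patterns therefore describe the members only. Both comparisons with day 0 use the same day 0 libraries.

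**Figure D2:**
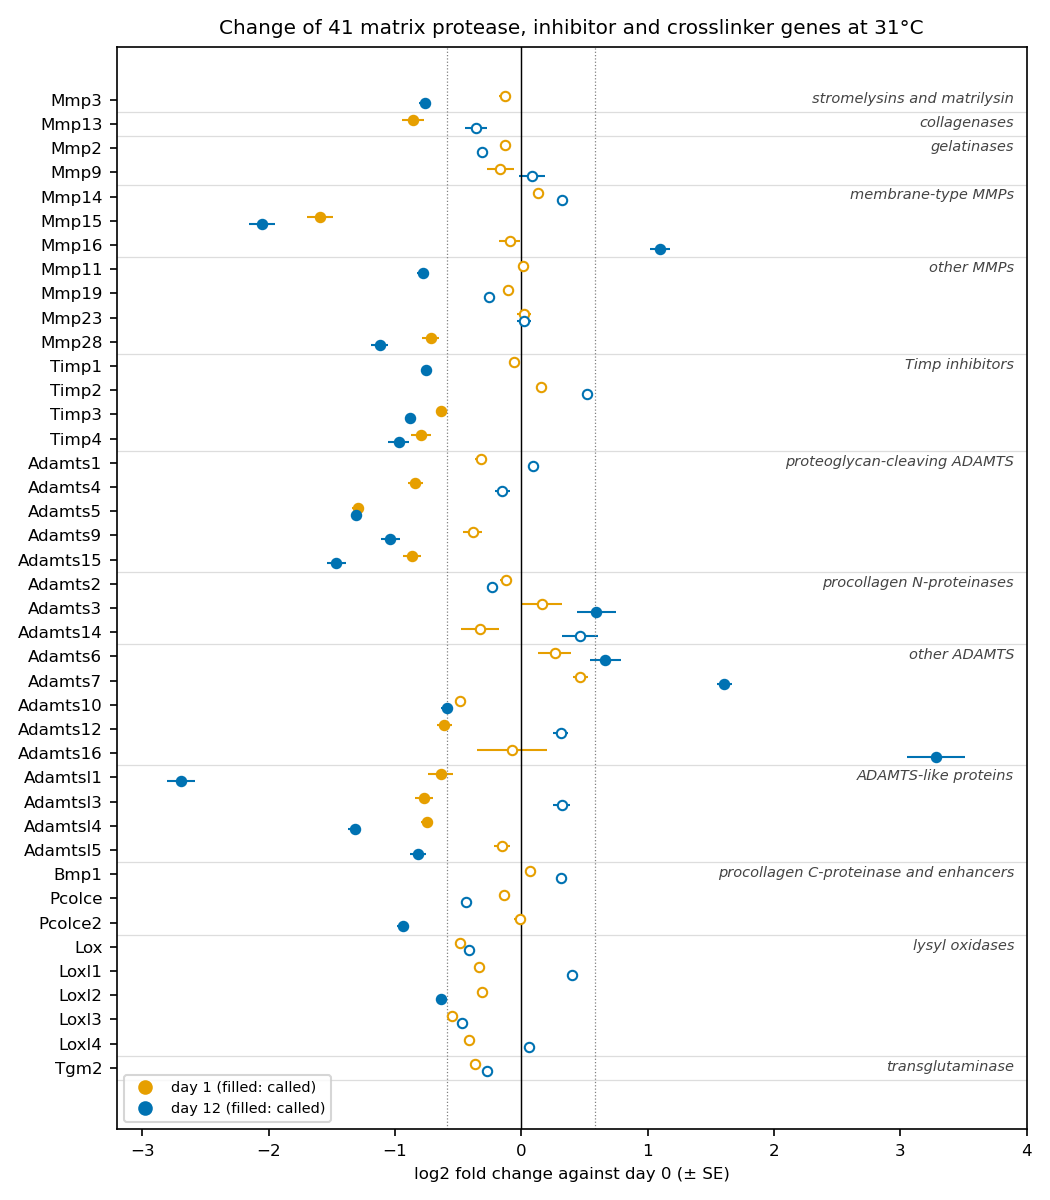
Log2 fold change against day 0 (x axis, ± SE of the fit) of the 41 members at 1 CPM or more, grouped by role, with day 1 in orange and day 12 in blue. Filled points were called (the fold limit of 1.5 is drawn as dotted lines), 12 lower at day 1, and 16 lower and 5 higher at day 12.

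Stromelysins, matrilysin and collagenases share a gene cluster. On chromosome 9 of GRCm38 (the build also called mm10), 9 Mmp genes of the table lie between positions 7272514 and 7699585, a span of 427.1 kb. Only Mmp3 (ENSMUSG00000043613.8, chromosome 9, 7445822 to 7455975, plus strand) and Mmp13 (ENSMUSG00000050578.10, chromosome 9, 7272514 to 7283331, plus strand) exceeded 1 CPM there. Mmp10, Mmp12, Mmp27, Mmp8, Mmp7, Mmp1a and Mmp1b each stayed under 1 CPM in every library.

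Promoter sequences of RefSeq (GRCm38.p6) were matched for 38 of the 59 members, from 250 bases before to 50 bases after the annotated start. The letters TGANTCA, which are palindromic apart from the middle base and are the site bound by AP-1 (dimers of Fos and Jun proteins), were sought in the 250 bases before the start on both strands. They were found in 7 of the 38 genes (18.4%), against 7.82% of all 27025 genes with a promoter and 6.75% of 32851 promoters. All 7 lie in the cluster, whose other 2 genes, Mmp8 and Mmp27, had no match. The windows are shown because the genes that carry the same letters ranged from the highest to the lowest levels of the set. Each is 47 bases of the gene's own strand, 5′ to 3′, with the match in capitals and 20 bases on either side:
Mmp3, chr9:7445756-7445802, plus strand: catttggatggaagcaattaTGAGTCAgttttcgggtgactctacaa
Mmp13, chr9:7272459-7272505, plus strand: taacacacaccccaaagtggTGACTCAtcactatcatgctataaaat
Mmp10, chr9:7502259-7502305, plus strand: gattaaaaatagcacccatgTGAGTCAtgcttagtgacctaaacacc
Mmp12, chr9:7347310-7347356, plus strand: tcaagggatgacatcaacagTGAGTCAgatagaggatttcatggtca
Mmp7, chr9:7692007-7692053, plus strand: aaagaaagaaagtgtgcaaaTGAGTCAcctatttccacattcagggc
Mmp1a, chr9:7464048-7464094, plus strand: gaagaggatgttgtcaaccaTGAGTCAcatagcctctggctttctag
Mmp1b, chr9:7388093-7388139, minus strand: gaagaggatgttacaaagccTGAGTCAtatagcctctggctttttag

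The first base of the match lay 46 bases before the start in Mmp3, 35 in Mmp13, 63 in Mmp10 and Mmp7, 44 in Mmp12, 73 in Mmp1a and 93 in Mmp1b. Mmp13 carried TGACTCA and the others TGAGTCA. The windows of the duplicated genes Mmp1a and Mmp1b were equal at 40 of 47 positions. The TATA box letters TATAAA, sought on the strand of the gene only, stood before the start of 9 of the 38 members (23.7%), against 8.94% of all genes, 6 of them in the cluster (Mmp3, Mmp7, Mmp10, Mmp13, Mmp1a and Mmp1b), the others being Mmp21, Adamts1 and Adamtsl2. The GC box GGGCGG, sought on both strands, was found in 23 members (60.5%), against 35.4% of all genes, and in none of the cluster genes. ACGTG, the core of the hypoxia response element, was present on either strand in 18.4% of the members and 18.5% of all genes. These matches describe letters in the window and no binding was measured.

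Levels of the genes with the match differed widely. Mmp3 stood at 5071, 4766, 5324, 5680.2 and 5497 CPM in the day 0 libraries, 4537, 4730.4, 4887, 4981 and 4976 at day 1 and 2993, 2830.2, 3298, 3049 and 3355 at day 12. Every day 12 library lay below every library of days 0 and 1, while days 0 and 1 overlapped. Mmp3 fell 1.70-fold at day 12 (log2 fold change -0.76 ± 0.045 (SE), adjusted p 1.54e-13), and its value at day 1 was -0.13 ± 0.045 (not called). The fall at day 12 was -0.57 on the log2 scale with total counts only, which is under the fold limit, and Mmp3 was chosen for full values after its level was seen.

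Mmp13, the main interstitial collagenase of mice, showed a different course. Its levels were 132, 118, 132, 156 and 164 CPM in the day 0 libraries, 57.9, 73.0, 89.9, 74.4 and 92.0 at day 1 and 109.6, 108, 114, 108 and 109 at day 12. All day 1 libraries were below all day 0 libraries, and the day 12 libraries lay between, also below day 0. Mmp13 fell 1.81-fold at day 1 (log2 fold change -0.86 ± 0.09 (SE), adjusted p 7.52e-09), stood at -0.36 ± 0.089 at day 12 against day 0 and at 0.50 ± 0.09 at day 12 against day 1, neither of them called. Under the reference genes the day 12 value was -0.62, past the limit, and under total counts the rise from day 1 to day 12 was 0.67, past it too.

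**Figure D3:**
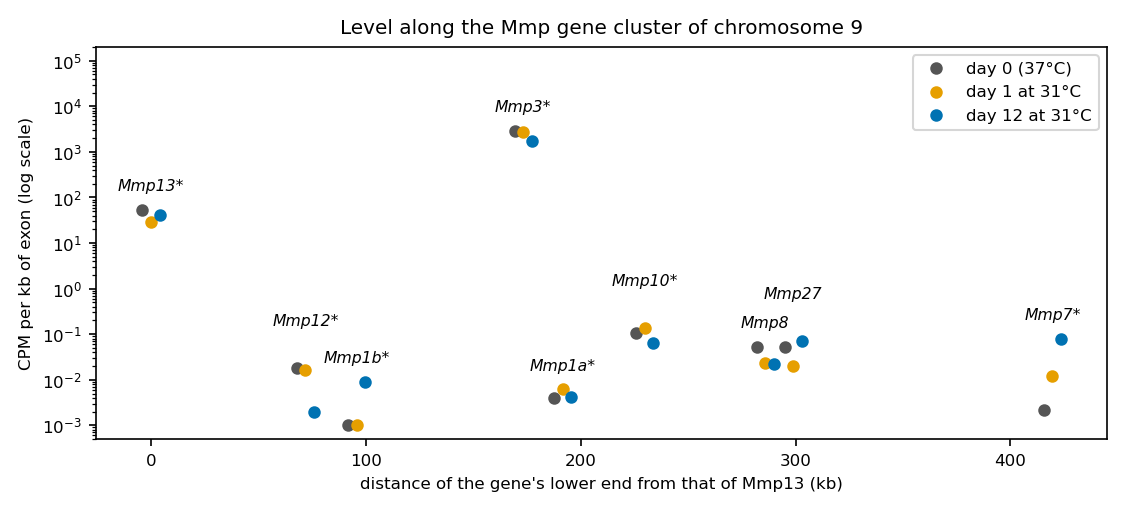
Mean CPM per kilobase of exon (y axis, log scale, n = 5 libraries) of the 9 Mmp genes of the chromosome 9 cluster against the distance of each gene's lower end from that of Mmp13 (x axis, kb), with groups shifted sideways by up to 4 kb for legibility and values of 0 drawn at 0.001. An asterisk marks a gene with TGANTCA before its start; Mmp3 reached 2925 CPM per kb and Mmp1b was at 0 in the day 0 and day 1 libraries.

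The low genes of the cluster were read as counts. Mmp12, the macrophage elastase, had counts of 9, 9, 26, 11 and 11 at day 0, 4, 19, 19, 3 and 4 at day 1 and 0, 1, 3, 0 and 2 at day 12. It was called lower at day 12, where 3 counts were the most in any library. Mmp27 had counts of 19, 12, 3, 18 and 6 at day 0, 1, 1, 5, 10 and 0 at day 1 and 10, 15, 17, 11 and 13 at day 12, called lower at day 1 with an adjusted p that rounds to 0.05 and higher at day 12 against day 1. Mmp10, stromelysin 2, had counts of 25, 11, 16, 15 and 26 at day 0, 10, 16, 29, 25 and 17 at day 1 and 7, 4, 19, 3 and 15 at day 12 and was called lower at day 12 than at day 1 only. Mmp7, matrilysin, was too low to be tested, with counts of 0, 0, 0, 1 and 0 at day 0, 4, 1, 0, 0 and 0 at day 1 and 17, 9, 2, 6 and 3 at day 12; its counts were above 1 in every day 12 library and in 1 of the 10 others.

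No change of a gelatinase was called. Mmp2, which degrades denatured collagen and type IV collagen, stood at 1033 ± 14.5, 948 ± 44.1 and 833 ± 39.2 CPM (SD, n = 5) at days 0, 1 and 12, with -0.31 ± 0.033 on the log2 scale at day 12, which did not pass the fold limit. Mmp9 stood at 2.66 ± 0.279, 2.38 ± 0.248 and 2.82 ± 0.215 CPM, with groups that overlapped.

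Among the membrane-type MMPs, Mmp15 and Mmp16 parted. Mmp15 (MT2-MMP, chromosome 8, 95352268 to 95375080, plus strand) stood at 6.99, 7.34, 8.09, 7.84 and 7.20 CPM in the day 0 libraries, 3.16, 2.28, 2.04, 2.25 and 2.66 at day 1 and 1.64, 2.07, 1.62, 1.88 and 1.84 at day 12. No cool library reached the lowest day 0 value. Mmp15 fell 3.02-fold at day 1 (log2 fold change -1.59 ± 0.10 (SE), adjusted p 8.36e-13), the largest decrease of that comparison among members at 1 CPM or more, and 4.15-fold at day 12 (log2 fold change -2.05 ± 0.10 (SE), adjusted p 7.03e-15). Mmp16 (MT3-MMP, chromosome 4, 17852893 to 18119145, plus strand) stood at 5.89, 5.95, 5.41, 5.69 and 5.05 CPM in the day 0 libraries, 5.68, 6.10, 4.76, 5.24 and 4.60 at day 1 and 12.1, 10.6, 13.9, 11.8 and 11.6 at day 12. Days 0 and 1 overlapped, and all day 12 libraries were higher than both. Mmp16 rose 2.14-fold at day 12 (log2 fold change 1.10 ± 0.079 (SE), adjusted p 6.34e-12), with -0.091 ± 0.083 at day 1, not called. Mmp14 (MT1-MMP), the activator of pro-MMP2 and the most abundant of this class, was at 344 ± 9.92, 376 ± 14.4 and 429 ± 11.8 CPM, with 0.32 ± 0.029 on the log2 scale at day 12, not called. Mmp17 and Mmp24 stayed under 1 CPM and were not called, and Mmp25 was too low to be tested.

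Of the other MMPs, Mmp28 and Mmp11 were lower. Mmp28 (epilysin), 12.0% of whose exon bases lie in 1700020L24Rik on the other strand, stood at 15.4, 14.0, 16.0, 14.5 and 15.9 CPM in the day 0 libraries, 8.44, 9.03, 8.58, 10.7 and 9.48 at day 1 and 6.61, 7.59, 6.29, 7.61 and 6.86 at day 12. Both cool groups lay under all day 0 libraries. Mmp28 fell 1.64-fold at day 1 (log2 fold change -0.72 ± 0.066 (SE), adjusted p 8.48e-10) and 2.18-fold at day 12 (log2 fold change -1.12 ± 0.068 (SE), adjusted p 2.04e-13). Mmp11 (stromelysin 3) stood at 126 ± 6.58, 127 ± 8.40 and 73.1 ± 2.34 CPM and was called lower at day 12 against day 0 (log2 fold change -0.78 ± 0.041) and against day 1 (-0.80 ± 0.041). Mmp19, 28.3% of whose exon bases are shared with Gm47093 and Tmem198b on the other strand, was at -0.11 at day 1 and -0.26 at day 12 on the log2 scale, and Mmp23 was at 0.021 and 0.022, with no call for either. Because it is not stated whether reads were counted by strand, reads of such overlapping genes cannot be told apart.

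Of the 4 inhibitors, 2 were lower at day 1 and 3 at day 12, beside 13.4% and 16.2% of all genes. Timp1, which is secreted and inhibits most soluble MMPs, stood at 1393, 1249.7, 1313, 1379 and 1515 CPM in the day 0 libraries, 1327, 1311, 1278, 1356 and 1296 at day 1 and 789, 795, 823, 828 and 829 at day 12. The day 12 libraries were all below the others, and days 0 and 1 overlapped. Timp1 fell 1.69-fold at day 12 (log2 fold change -0.75 ± 0.037 (SE), adjusted p 2.96e-15) and was -0.061 ± 0.036 at day 1, not called; with total counts only the day 12 value was -0.56, under the fold limit. Timp3, the inhibitor that binds to the matrix and also blocks ADAM17 and aggrecanases, stood at 1825, 2031, 1736, 1772 and 1800 CPM in the day 0 libraries, 1241, 1129.8, 1259.7, 1135 and 1149 at day 1 and 991, 1002, 1044, 950.4 and 978 at day 12. Both cool groups lay below every day 0 library. Timp3 fell 1.55-fold at day 1 (log2 fold change -0.63 ± 0.039 (SE), adjusted p 6.1e-13) and 1.85-fold at day 12 (log2 fold change -0.88 ± 0.039 (SE), adjusted p 5.75e-16), with 21.3% of its exon bases in Syn3 on the other strand.

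Timp4 and Timp2 completed the family. Timp4, an inhibitor known from heart and adipose tissue, stood at 10.1, 10.3, 10.2, 8.93 and 7.94 CPM in the day 0 libraries, 5.68, 5.46, 5.81, 5.94 and 4.52 at day 1 and 4.76, 4.49, 4.94, 4.92 and 5.11 at day 12. Again no cool library reached the lowest day 0 value. It fell 1.74-fold at day 1 (log2 fold change -0.80 ± 0.081 (SE), adjusted p 4.3e-09) and 1.96-fold at day 12 (log2 fold change -0.97 ± 0.081 (SE), adjusted p 1.02e-10). Timp2, which inhibits MMP2 and also takes part in its activation by MT1-MMP, went the other way in value, at 1675, 1761, 1715, 1695 and 1699 CPM in the day 0 libraries, 1946, 1901, 1863, 1879 and 1950.4 at day 1 and 2437, 2469, 2458, 2480.1 and 2382 at day 12. The 3 groups did not overlap and their order followed the time at 31°C. The log2 values were 0.16 ± 0.024 at day 1 and 0.52 ± 0.024 at day 12 (adjusted p 1.23e-15), both under the fold limit and so not called; with total counts only the day 12 value was 0.71 and was called.

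The summed families were compared per length as a description. The MMP sum was 3427 ± 207, 3133 ± 112 and 2144 ± 123 CPM per kb at days 0, 1 and 12, and Mmp3 made up 85.3 ± 0.696%, 85.5 ± 0.495% and 80.3 ± 1.17% of it. The Timp sum was 2208 ± 99.7, 2115 ± 33.0 and 1666 ± 22.0 CPM per kb. The ratio of both sums was 1.48 to 1.66 in the day 0 libraries, 1.38 to 1.54 at day 1 and 1.20 to 1.36 at day 12, so that day 12 lay below both earlier groups. Without Mmp3 the direction turned, with ratios of 0.216 to 0.235, 0.206 to 0.225 and 0.244 to 0.258. Mmp2 over Timp2 per length was 0.665 to 0.726, 0.542 to 0.602 and 0.379 to 0.411, which did not overlap, while Mmp3 over Timp1 was 1.79 to 2.03, 1.69 to 1.89 and 1.76 to 2.00, which overlapped in all 3 groups. RNA ratios say nothing of the amount of protein or its activity.

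**Figure D4:**
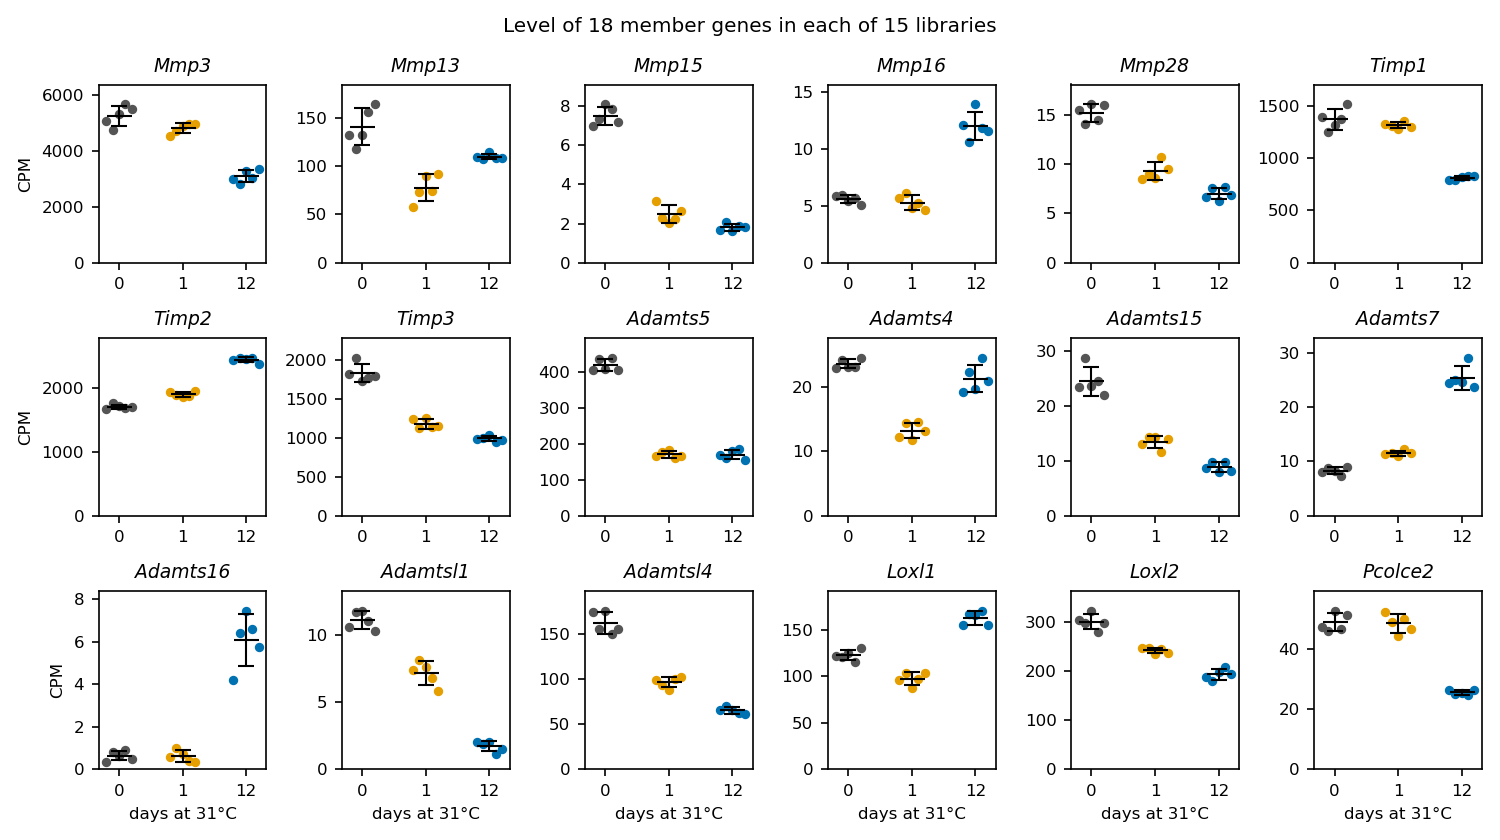
CPM (y axis, linear from 0) of 18 members in each library (points) by days at 31°C (x axis), with the mean ± SD of 5 libraries in black. Adamts5 and Mmp15 stand apart from day 0 at both days, Mmp3, Timp1 and Pcolce2 at day 12 only, and Adamts16 rose from 0.633 CPM at day 0 to 6.08 at day 12.

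Of 5 tested aggrecan- and versican-cleaving ADAMTS genes, 3 were lower at day 1 and 3 at day 12, beside 13.4% and 16.2% of all genes. Adamts5 (aggrecanase 2, ENSMUSG00000022894.6, chromosome 16, 85856173 to 85901828, minus strand) stood at 405, 437, 408, 439.8 and 405 CPM in the day 0 libraries, 166, 176, 184, 161 and 166 at day 1 and 169, 159.5, 179.7, 184 and 155 at day 12. The cool groups overlapped each other and neither came near day 0. Adamts5 fell 2.46-fold at day 1 (log2 fold change -1.30 ± 0.044 (SE), adjusted p 6.89e-18) and 2.47-fold at day 12 (log2 fold change -1.30 ± 0.044 (SE), adjusted p 2.3e-18), and the value at day 12 against day 1 was -0.0092 ± 0.043 (not called). Its neighbour Adamts1 (chromosome 16, 85793827 to 85803113, minus strand), a protease of the same substrates, was at 199 ± 6.42, 159 ± 6.53 and 212 ± 16.6 CPM and was called in no comparison with TMM scaling. The chondrocyte markers, whose part was not tested, summed to a mean of 4152, 4117 and 1378 CPM at days 0, 1 and 12, so that their sum at day 1 lay within the day 0 range.

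Adamts4 and Adamts15 fell at day 1 and then diverged. Adamts4 (aggrecanase 1) stood at 23.0, 24.2, 23.1, 23.1 and 24.5 CPM in the day 0 libraries, 12.3, 14.4, 11.8, 14.5 and 13.2 at day 1 and 19.2, 22.3, 19.6, 24.4 and 20.9 at day 12. All day 1 libraries were below the others, and day 12 overlapped day 0. Adamts4 fell 1.79-fold at day 1 (log2 fold change -0.84 ± 0.061 (SE), adjusted p 1.22e-11) and was -0.15 ± 0.059 at day 12 against day 0, while day 12 was called higher than day 1 (0.69 ± 0.062; 0.57 under the reference genes, which is under the limit). Adamts15 stood at 23.5, 28.9, 23.7, 24.5 and 22.0 CPM in the day 0 libraries, 13.1, 14.3, 14.3, 11.7 and 14.0 at day 1 and 8.77, 9.89, 7.95, 9.82 and 8.16 at day 12. The groups did not overlap and each cool group was lower than the one before it. Adamts15 fell 1.82-fold at day 1 (log2 fold change -0.86 ± 0.071 (SE), adjusted p 1.11e-10) and 2.76-fold at day 12 (log2 fold change -1.46 ± 0.074 (SE), adjusted p 5.74e-15). Its call at day 12 against day 1 (-0.60 ± 0.075) was lost without day 1 replicate 2 or 3 or without day 12 replicate 3 or 5, at -0.58, -0.58, -0.56 and -0.57, and with total counts only (-0.43).

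Adamts9, a versican-cleaving enzyme, was lower late. Its means were 27.3 ± 1.93, 20.9 ± 1.27 and 13.2 ± 2.10 CPM, with 12.0% of its exon bases in A730049H05Rik and Gm15737 on the other strand. Adamts9 fell 2.05-fold at day 12 (log2 fold change -1.04 ± 0.076 (SE), adjusted p 8.92e-12) and was -0.39 ± 0.074 at day 1 (not called). The call at day 12 against day 1 (-0.65 ± 0.077) did not hold with total counts only (-0.48) or when day 12 replicate 4 was left out (-0.57). Adamts8 and Adamts20 of this class were too low to be tested.

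The procollagen N-proteinases showed small changes. Adamts2, the most abundant of them, stood at 94.6 ± 2.91, 86.9 ± 5.26 and 80.8 ± 6.31 CPM and was not called. Adamts3 stood at 2.24, 1.29, 1.89, 2.43 and 1.88 CPM in the day 0 libraries, 2.25, 2.82, 1.59, 1.95 and 2.35 at day 1 and 3.38, 2.76, 2.85, 2.37 and 3.28 at day 12. The groups overlapped, although Adamts3 was called higher at day 12 (log2 fold change 0.59 ± 0.15 (SE), adjusted p 0.00136, 1.51-fold). This call sat at the fold limit: it was lost without day 0 replicate 2 (0.48), 3 (0.58) or 5 (0.58), without day 12 replicate 1 (0.54) or 5 (0.55), under the reference genes (0.33) and in the larger series of library numbers alone (0.54). It was lost as well with DESeq2, with DESeq2 size factors, with a minimum mean of 1 CPM and with only both groups in the fit (each 0.58). Adamts14 was at 0.46 against day 0 at day 12 (not called, but 0.66 and called with total counts only) and was called higher at day 12 than at day 1 (0.79 ± 0.15).

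Of the 5 increases at day 12, 3 were among the other ADAMTS genes. Adamts16 (ENSMUSG00000049538.14, chromosome 13, 70727802 to 70841811, minus strand), a protease that cleaves fibronectin, stood at 0.349, 0.797, 0.629, 0.899 and 0.491 CPM in the day 0 libraries, 0.551, 1.01, 0.728, 0.377 and 0.323 at day 1 and 4.19, 6.42, 7.47, 6.59 and 5.74 at day 12. Every day 12 library was over 4 CPM and every earlier library was at 1.01 CPM or lower. Adamts16 rose 9.73-fold at day 12 (log2 fold change 3.28 ± 0.23 (SE), adjusted p 3.89e-12), the largest increase of the set, and was -0.075 ± 0.28 at day 1, a value whose sign turned without day 0 replicate 2 or 4 or day 1 replicate 4 or 5. Adamts7, which cleaves COMP (cartilage oligomeric matrix protein), stood at 8.12, 8.70, 8.30, 7.38 and 9.05 CPM in the day 0 libraries, 11.3, 11.5, 10.9, 12.2 and 11.5 at day 1 and 24.4, 24.9, 24.6, 29.1 and 23.7 at day 12. The 3 groups were apart and their order followed the time at 31°C. Adamts7 rose 3.05-fold at day 12 (log2 fold change 1.61 ± 0.059 (SE), adjusted p 1.13e-17), and its day 1 value of 0.47 ± 0.06 was under the fold limit.

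Adamts6 changed less, and Adamts10 and Adamts12 were each called lower against day 0 in a single comparison. Adamts6 stood at 2.71, 2.62, 2.28, 2.80 and 2.52 CPM in the day 0 libraries, 3.24, 2.9996, 3.39, 3.05 and 2.83 at day 1 and 3.05, 3.30, 5.33, 4.95 and 3.95 at day 12. Every cool library lay above the highest day 0 value. Adamts6 rose 1.59-fold at day 12 (log2 fold change 0.67 ± 0.13 (SE), adjusted p 4.2e-05), and this call was lost without day 12 replicate 3 (0.55) and under the reference genes (0.40). Adamts10, known for its part in fibrillin microfibrils, was at 30.9 ± 2.08, 22.1 ± 0.620 and 20.5 ± 0.774 CPM. Both cool groups of Adamts10 lay below day 0 without overlap, and its day 1 value (-0.48 ± 0.043, adjusted p 4.63e-10) was under the fold limit, while the reference genes gave -0.63, which was called. Its call at day 12 (-0.59 ± 0.043) lay at the limit and was lost without day 0 replicate 1, 3 or 4 or day 12 replicate 1, 3 or 5, at -0.56 to -0.58, and with total counts (-0.40). Adamts12, the closest relative of Adamts7, was at 11.9 ± 0.610, 7.79 ± 0.668 and 14.7 ± 1.05 CPM, called lower at day 1 (-0.61 ± 0.062) and higher at day 12 than at day 1 (0.92 ± 0.062). The day 1 call of Adamts12 was lost without day 0 replicate 3 (-0.58) or day 1 replicate 4 (-0.57), and in the larger series of library numbers (11 libraries) alone (-0.54). Adamts17 was under 1 CPM and called lower at day 12, with counts of 15, 13, 17, 6 and 15 at day 0, 6, 5, 13, 2 and 9 at day 1 and 3, 0, 6, 1 and 0 at day 12.

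ADAMTS-like proteins have no protease domain and bind to the matrix. Adamtsl1 (chromosome 4, 85514172 to 86428385, plus strand) stood at 10.6, 11.7, 11.8, 11.0 and 10.3 CPM in the day 0 libraries, 7.39, 8.11, 7.59, 6.81 and 5.78 at day 1 and 1.98, 1.85, 2.03, 1.14 and 1.4990 at day 12. The 3 groups were apart, and day 12 was lowest. Adamtsl1 fell 6.46-fold at day 12 (log2 fold change -2.69 ± 0.11 (SE), adjusted p 1.4e-16), the largest decrease at day 12 among members at 1 CPM or more. At day 1 it was lower by 1.56-fold (log2 fold change -0.64 ± 0.097 (SE), adjusted p 2.83e-06), a call lost without day 1 replicate 5 (-0.57) and in the larger series of library numbers alone (-0.55).

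Adamtsl4 stood at 175, 155, 176, 150 and 156 CPM in the day 0 libraries, 99.2, 93.2, 88.2, 99.9 and 102 at day 1 and 66.0, 70.4, 65.4, 62.2 and 61.2 at day 12. These groups were apart as well, in the same order. Adamtsl4, a fibrillin-binding protein, fell 1.68-fold at day 1 (log2 fold change -0.75 ± 0.047 (SE), adjusted p 6.85e-13) and 2.50-fold at day 12 (log2 fold change -1.32 ± 0.048 (SE), adjusted p 1.01e-17). Its value at day 12 against day 1 was -0.57 ± 0.048, just under the fold limit and not called. It was called there under the reference genes (-0.68) and without day 1 replicate 3 (-0.60) or day 12 replicate 2 (-0.60). Adamtsl3 was at 15.1 ± 1.12, 8.84 ± 0.577 and 18.8 ± 2.34 CPM, called lower at day 1 (-0.77 ± 0.073) and higher at day 12 than at day 1 (1.09 ± 0.073). Adamtsl5 was at 22.5 ± 1.58, 20.2 ± 1.49 and 12.8 ± 1.37 CPM and was called lower at day 12 (-0.82 ± 0.065). Adamtsl2 was too low to be tested.

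Of the genes of procollagen C-terminal processing, Pcolce2 was called. Bmp1, the protease, stood at 121 ± 3.32, 126 ± 3.23 and 150.1 ± 6.55 CPM, and its enhancer Pcolce at 804 ± 19.1, 729.6 ± 22.2 and 592 ± 15.8 CPM. Their log2 fold changes at day 12 were 0.32 ± 0.031 and -0.44 ± 0.027, neither of them called, and -0.70 for Pcolce under the reference genes, which was called. Pcolce2 stood at 47.3, 46.0, 52.6, 46.5 and 51.2 CPM in the day 0 libraries, 52.3, 48.9, 44.1, 49.9 and 46.7 at day 1 and 26.2, 25.1, 25.2, 24.5 and 26.2 at day 12. The day 12 libraries lay below all others and days 0 and 1 overlapped. Pcolce2 fell 1.91-fold at day 12 (log2 fold change -0.94 ± 0.045 (SE), adjusted p 2.14e-15).

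Of the crosslinking enzymes, 1 of 5 lysyl oxidase genes was called against day 0, lower at day 12, where 16.2% of all genes were lower. Loxl2, which crosslinks type IV collagen of basement membranes, stood at 306, 298, 324, 281 and 298 CPM in the day 0 libraries, 248, 247, 236, 246 and 237 at day 1 and 188, 180, 198, 209 and 195 at day 12. The groups were apart, with day 12 lowest. Loxl2 fell 1.55-fold at day 12 (log2 fold change -0.64 ± 0.037 (SE), adjusted p 7.72e-14) and was -0.31 ± 0.036 at day 1 (not called); with total counts only the day 12 value was -0.44, under the fold limit. Loxl1, known for the renewal of elastic fibres, stood at 122, 121, 125, 115 and 131 CPM in the day 0 libraries, 96.0, 104, 87.4, 97.7 and 104 at day 1 and 155, 167, 166, 171 and 155 at day 12. Day 1 was below day 0 and day 12 above it, without overlap. Loxl1 was called higher at day 12 than at day 1 (log2 fold change 0.74 ± 0.042 (SE), adjusted p 1.53e-13), and its values against day 0 were -0.33 ± 0.042 at day 1 and 0.40 ± 0.042 at day 12, not called (0.60 at day 12 with total counts, which was called).

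Lox made up 75.2 ± 0.762% of the lysyl oxidase sum per length at day 0. Lox stood at 2135 ± 92.0, 1526 ± 29.1 and 1604 ± 124 CPM, and both cool groups were below day 0 without overlap. Its log2 fold changes of -0.48 ± 0.04 and -0.41 ± 0.04 passed the adjusted p but not the fold limit, and under the reference genes they were -0.63 and -0.67 and were called. Loxl3, 11.6% of whose exon bases lie in Htra2 on the other strand, was at -0.55 ± 0.032 and -0.47 ± 0.032, and likewise was called under the reference genes (-0.69 and -0.73). Loxl4 was at -0.42 ± 0.034 at day 1 and 0.062 ± 0.034 at day 12. The summed level of the 5 genes was 560.4 to 615 CPM per kb at day 0, 427 to 441 at day 1 and 439 to 501 at day 12. Tgm2, 21.8% of whose exon bases are shared with Gm20412 and Rprd1b on the other strand, stood at 239.5 ± 10.1, 186 ± 5.05 and 198 ± 7.42 CPM and was not called.

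Ratios within a library do not depend on scaling and were read for 9 pairs of related genes, chosen after the levels were seen and given without a test. Adamts5 over Adamts1 was 0.98 to 1.16 on the log2 scale in the day 0 libraries, 0.05 to 0.15 at day 1 and -0.38 to -0.25 at day 12. Timp2 over Timp1 was 0.17 to 0.49, 0.47 to 0.59 and 1.52 to 1.64, and Timp2 over Timp3 was -0.21 to -0.017, 0.56 to 0.76 and 1.24 to 1.38. By reads not scaled to gene length, the highest inhibitor thus turned from Timp3 at day 0 to Timp2 in both cool groups. Per kb of exon, Timp1 was highest at days 0, 1 and 12, at 1543, 1479 and 915 CPM. Timp2 stood at 439, 490 and 628 CPM per kb and Timp3 at 225, 145 and 122. Mmp16 over Mmp15 was -0.58 to -0.25, 0.79 to 1.42 and 2.36 to 3.11. Adamts7 over Adamts12 was -0.67 to -0.34, 0.38 to 0.84 and 0.57 to 1.09, with overlap of days 1 and 12. Loxl1 over Loxl2 was -1.37 to -1.19, -1.43 to -1.19 and -0.33 to -0.10, so that it stood apart at day 12 only. Mmp14 over Mmp2 was -1.65 to -1.53, -1.40 to -1.26 and -1.02 to -0.90, and Bmp1 over Pcolce was -2.80 to -2.68, -2.60 to -2.48 and -2.02 to -1.92, with no overlap of groups in either pair. Mmp13 over Mmp3 was -5.34 to -5.07, -6.29 to -5.76 and -4.95 to -4.72, lowest at day 1.

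**Figure D5:**
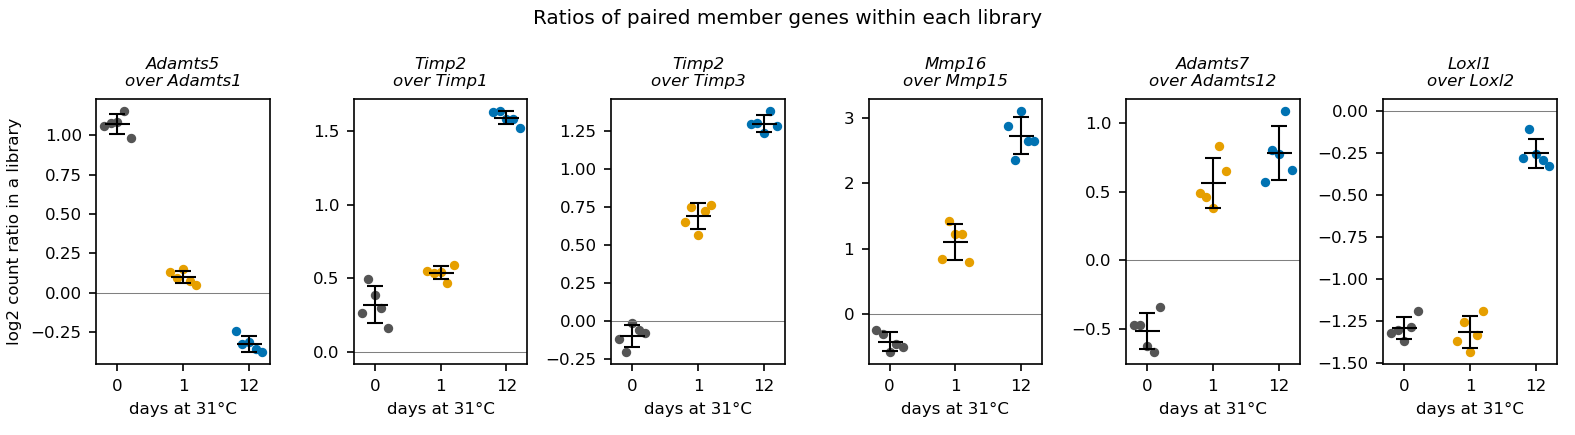
Log2 ratio of the counts of paired genes within each library (y axis, points) by days at 31°C (x axis), with the mean ± SD of 5 libraries in black; each panel has its own y range. Adamts5 over Adamts1 fell from a mean of 1.07 at day 0 to 0.0986 at day 1 and -0.33 at day 12, while Timp2 over Timp1 was 0.32, 0.54 and 1.59.

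Genes that work beside these enzymes were read from further lists. Of 11 tested genes of the plasminogen system, which activates several MMPs, 1 was higher and 1 lower at day 1, and 3 were higher and 2 lower at day 12 (13.4% of all genes were lower and 7.71% higher at day 1, and 16.2% and 13.0% at day 12). The urokinase receptor Plaur stood at 1.44 ± 0.056 on the log2 scale at day 12 and tissue plasminogen activator Plat at 0.87 ± 0.063, while the protease inhibitor Serpine2 stood at -1.67 ± 0.048. Of 15 membrane ADAM proteases and partners, 0 were called at day 1, and 4 were higher and 3 lower at day 12, with the inactive protease homologue Adam22 at 1.10 ± 0.15, the metalloprotease Adam33 at 1.01 ± 0.15, the MMP inducer Bsg at -1.59 ± 0.045 and Rhbdf2, a partner of ADAM17, at -0.85 ± 0.039. Of 15 cathepsins and other genes of collagen-degrading uptake, 2 were higher and 1 lower at day 1, and 1 was higher and 7 lower at day 12. The collagen-degrading cathepsin Ctsk was the 1 that was higher at day 12 (0.88 ± 0.038), and the serine protease Htra1 (-2.59 ± 0.04) and the matrix protein Ecm1 (-1.23 ± 0.043) fell most. The medians of these lists at day 12 were 0.22, 0.014 and -0.57, beside 0.012 for all genes.

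Of 17 genes of collagen folding and hydroxylation, 1 was higher and 5 lower at day 1, and 1 was higher and 6 lower at day 12, beside the same shares of all genes (13.4% lower and 7.71% higher, then 16.2% and 13.0%). The prolyl 4-hydroxylase subunits P4ha2 and P4ha1 stood at -1.79 ± 0.029 and -1.72 ± 0.03 (log2 fold change) at day 12, and the collagen chaperone Fkbp10 at 0.59 ± 0.028. Of 17 genes of the elastic fibre and fibrillin scaffold, 3 were lower at day 1, and 3 were higher and 7 lower at day 12, with the microfibril glycoprotein Mfap5 at 1.55 ± 0.11, the elastin-associated Emilin2 at 1.47 ± 0.05, fibulin 1 (Fbln1) at -2.31 ± 0.042 and elastin (Eln) at -1.13 ± 0.08. A list of 17 genes held hyalectans and other substrates of ADAMTS enzymes, together with hyaluronan synthases (Has) and link proteins (Hapln). Of these 17, 1 was lower at day 1, and 3 were higher and 9 lower at day 12. The thrombospondins Thbs2 and Thbs1 stood at 1.09 ± 0.034 and 0.75 ± 0.05. The proteoglycan lumican (Lum) stood at -1.13 ± 0.033 and Comp, the substrate of ADAMTS7, at -2.02 ± 0.039. Of 24 AP-1 subunits and other known regulators of MMP genes, 2 were higher and 1 lower at day 1, and 3 were higher and 2 lower at day 12, with the ETS factor Etv4 at 1.89 ± 0.093, the cytokine Il6 at 1.25 ± 0.09, and the AP-1 subunits Fosb at -1.29 ± 0.14 and Fosl1 at -0.68 ± 0.052. Of the exon bases of Fosl1, 57.2% are shared with Ccdc85b on the other strand, so its value can include reads of that gene. The medians of these 4 lists at day 12 were -0.29, -0.12, -0.76 and -0.12.

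The other 12 members were too low to be tested. They were Mmp1a, Mmp1b, Mmp7, Mmp8, Mmp21, Mmp25, Adamts8, Adamts13, Adamts18, Adamts19, Adamts20 and Adamtsl2, with at most 17 counts in any library. When the filter on low counts was left out, 2 of the 12 were called higher at day 12 against day 0 by edgeR, Mmp7 (adjusted p 0.000931) and Mmp1b (adjusted p 0.0472). Mmp1b had 0 counts in all libraries of days 0 and 1 and counts of 1, 0, 0, 1 and 4 at day 12, so its call rests on 6 reads. Mmp7 was also called higher at day 12 than at day 1 (adjusted p 0.0267), and the other 10 members were called in no comparison of that fit. The summed counts of all 59 members made up 1.59 to 1.66% of the counts of a library at day 0, 1.39 to 1.44% at day 1 and 1.34 to 1.44% at day 12.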

How the data were processed

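RNA of 15 libraries in 3 groups of 5 was read. The authors aligned reads to mouse genome build mm10 with TopHat2 2.0.13 and Bowtie2 2.2.1 and deposited the raw read counts that HTSeq gave for each gene; whether strand was used was not stated, so overlapping genes can share counts. The deposited rlog values and DESeq2 result tables of the authors were not used. Groups came from the labels. Genes with too few counts were removed with filterByExpr (minimum count 10), libraries were scaled by TMM, and the quasi-likelihood test of edgeR 4.0.16 (R 4.3.3) was fitted once to 14293 genes in all 15 libraries, with Benjamini-Hochberg adjustment over all of them. Calls needed an adjusted p under 0.05 together with a change of over 1.5-fold. The SE was taken as the size of the log2 fold change over the square root of F. The code was tested on simulated data. Overlaps, coordinates and exon lengths came from GENCODE for GRCm38, and promoters from RefSeq (first 30 transcribed bases found in a GENCODE transcript of the gene for 33 of 41 member promoters).

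Members, lists and tests were chosen with earlier results of these data known. Full values were given for called members of the Timp, lysyl oxidase and C-proteinase groups and for up to 6 largest increases and 6 largest decreases against day 0 among called members at 1 CPM or more; for the further lists, the 2 largest called changes in each direction at day 12 were named, except for a gene that is not reported here. DESeq2 1.42.0, other scalings, filters and fold limits, a replicate block, the series of library numbers and leaving out each library were tried as alternatives. Totals of 64648178 to 133270973 counts and a coefficient of variation (5.25%) within groups set the precision.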

Additional observations from a re-analysis of the deposited data

Results flagged for a closer look

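Of 123 groups of 5 libraries (41 members in 3 groups), 3 had a library far from the other 4 by Dixon's criterion, where chance gives about 1 in 20, or 6.15. Day 0 replicate 4 had 2.16 CPM of Mmp9, and the next library had 2.73. Day 12 replicate 1 had 23.0 CPM of Mmp23, and the next had 19.9. Day 12 replicate 4 had 29.1 CPM of Adamts7, and the next had 24.9; the rise of Adamts7 at day 12 was 1.55 (log2) without that library and 1.61 with it.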

How the results depend on the processing

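Of 49 called values of members at 1 CPM or more, 35 kept direction and call in every alternative with the fold limit of 1.5, and none of the 49 turned direction in any alternative. The counts of members called depended most on that limit. Without it, 4 members were called higher at day 1 and 28 lower, and 13 were called higher and 27 lower at day 12 against day 0. The counts for day 12 against day 1 were 20 higher and 21 lower. At over 2-fold, 3 were lower at day 1, 3 and 9 were higher and lower at day 12 against day 0, and 5 and 4 were so at day 12 against day 1. Total counts only gave 8 higher at day 12 against day 0 and 5 lower at day 12 against day 1, and the reference genes gave 3 higher at day 12 against day 0. Leaving out 1 library gave 0 to 0 higher members and 12 to 13 lower ones at day 1, 4 to 5 and 17 to 18 at day 12 against day 0, and 9 to 9 and 8 to 11 at day 12 against day 1. DESeq2 gave 0 and 12, 5 and 18, and 10 and 11 for these comparisons.

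The 15 correlations between same-numbered libraries of different groups were -0.0255 to 0.0436, and 0 were over 0.1. In 8 of these 15 pairs the own number was the best match. How many such matches arise without pairing was not tested, so a weak pairing by replicate number remains possible. With a replicate block the counts were 0 and 13, 5 and 18, and 9 and 11, as without it.

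The log2 fold changes that turned sign were not called. With total counts these were Pcolce2 (0.0092) at day 1, Adamts4 (0.043) at day 12, and Mmp19 (0.023), Adamts5 (0.16), Adamts2 (0.067) and Adamts10 (0.065) at day 12 against day 1. With the reference genes they were Mmp14 (-0.017), Mmp11 (-0.13), Mmp23 (-0.13) and Bmp1 (-0.079) at day 1, Mmp9 (-0.18), Mmp23 (-0.24), Adamts1 (-0.17) and Loxl4 (-0.20) at day 12, and Mmp23 (-0.11), Lox (-0.043), Loxl3 (-0.039) and Tgm2 (-0.023) at day 12 against day 1. Mmp23 at day 12 against day 1 also turned with DESeq2 size factors (-0.0075), DESeq2 (-0.0073), the replicate block (-0.0012) and the library series as covariate (-0.0013). In the larger library series alone Mmp23 (-0.042), Adamts16 (0.22) and Pcolce2 (0.0091) turned at day 1. Without 1 library, the ranges that crossed 0 were, at day 1, -0.018 to 0.044 for Mmp11, -0.027 to 0.057 for Mmp23, -0.33 to 0.11 for Adamts16 and -0.040 to 0.023 for Pcolce2; at day 12, -0.027 to 0.041 for Mmp23; and at day 12 against day 1, -0.049 to 0.050 for Mmp23 and -0.041 to 0.022 for Adamts5. The cause of these turns was not tested.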
